A study of Homo sapiens with 24 samples.

Results

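The heat shock chaperones described here are 10 protein-coding genes, HSPA8, HSPA1A, HSPA1B, HSPH1, DNAJB1, HSP90AA1, HSP90AB1, HSPD1, HSPE1 and HSPB1. They were taken by name from the 60668 rows of the count table, and all 10 were among the 22158 genes with enough counts to be tested. The libraries are poly(A)-selected, stranded RNA-seq of MCF-10A, an established non-tumorigenic human mammary epithelial line, grown as 3D cultures on Matrigel. Cells of the MYC.ER genotype carry MYC joined to an estrogen receptor domain, so that 4-hydroxytamoxifen (4-OHT) switches the fusion protein on; cells of the wild-type genotype, called parental here, received the same drug. Each line was collected after 0, 8, 24 or 48 h of 1 μM 4-OHT, all wells on day 5 of culture, which gives 8 groups of 3 libraries and 24 libraries in all. The 0 h groups of both lines had 0 h of 4-OHT, and the sources used here do not state a vehicle, the promoter that drives MYC-ER or whether the MYC-ER line is a clone. Wells were seeded in triplicate, and nothing says that replicates came from separate cultures, so the p-values measure only the spread between these libraries. In bulk RNA, fewer cells of a kind and less RNA per cell cannot be told apart.

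Heat shock chaperones bind unfolded proteins and use ATP to fold them or hand them on. HSP70 proteins (HSPA8, the constitutive form, and the heat-inducible HSPA1A and HSPA1B) are loaded by J-domain proteins such as DNAJB1 and reset by nucleotide exchange factors such as HSPH1. HSP90 proteins (HSP90AA1, the inducible form, and HSP90AB1, the constitutive form) mature kinases and hormone receptors with the help of cochaperones. HSPD1 and HSPE1 form the chaperonin of the mitochondrial matrix, and HSPB1 is a small heat shock protein that holds clients without ATP. The transcription factor HSF1 induces most of them after heat by binding inverted repeats of GAA, and MYC binds E-boxes.

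Short matches to these motifs upstream of the start sites are shown first, since they are what most members share in sequence. RefSeq promoters on GRCh38.p14 (250 bases before to 50 after each start) were available for all 10 members, in 16 windows, and for 27305 genes in 35116 windows. Both strands were searched for GAANNTTC (a head-to-head pair of GAA units), TTCNNGAA (a tail-to-tail pair), both pairs overlapping in a shared unit (the 3-unit element, which counts for each pair too) and the E-box CACGTG. GAANNTTC was found for 8 of the 10 members, against 8.21% of all genes searched. TTCNNGAA was found for 4 members, against 9.46% of genes, and the 3-unit element for the same 4, HSPA8, HSP90AA1, HSP90AB1 and HSPD1, against 0.608% of genes. A gene with several RefSeq starts was counted if the window of any of them held a match. CACGTG was found for HSPD1 and HSPE1, against 8.77% of genes, and no match of any of these motifs was found for HSPH1. A match is a description of letters and not a measured binding site, and matches to other spacings were not searched. The matches are printed 5′ to 3′ on the strand of the gene with matched bases in capitals, first for the 4 members with the 3-unit element, then for the members with head-to-head pairs alone, then for the E-box.
HSPA8, chr11:123062345-123062374, minus strand: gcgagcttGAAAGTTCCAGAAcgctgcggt
HSPA8, chr11:123062170-123062199, minus strand: cgggccccTTCTGGAAGGTTCtaagatagg
HSP90AA1, chr14:102087104-102087133, minus strand: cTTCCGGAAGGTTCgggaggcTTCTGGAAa
HSP90AB1, chr6:44247770-44247799, plus strand: ggagcaggTTCTGGAAGATTCatgggctcc
HSP90AB1, chr6:44247823-44247852, plus strand: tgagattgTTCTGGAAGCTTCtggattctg
HSPD1, chr2:197500061-197500090, minus strand: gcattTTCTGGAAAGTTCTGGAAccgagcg
HSPA1A, chr6:31815426-31815455, plus strand: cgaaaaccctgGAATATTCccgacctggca
HSPA1B, chr6:31827622-31827651, plus strand: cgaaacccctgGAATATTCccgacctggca
DNAJB1, chr19:14518456-14518485, minus strand: cgggcggggcgGAAGGTTCtggagggggct
DNAJB1, chr19:14518426-14518455, minus strand: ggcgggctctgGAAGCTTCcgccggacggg
HSPB1, chr7:76302480-76302509, plus strand: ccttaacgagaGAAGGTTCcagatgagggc
HSPD1, chr2:197500345-197500374, minus strand: cggccctggcgaCACGTGaaaaaatcaccc
HSPE1, chr2:197500345-197500374, plus strand: gggtgattttttCACGTGtcgccagggccg
The HSPD1 and HSPE1 genes start close together on opposite strands, and their E-box lines show the same bases of chromosome 2 read on opposite strands. This E-box lies 88 to 83 bases before RefSeq start 1 of HSPD1 and 22 to 17 before the HSPE1 start. The HSPA8 matches lie 230 to 218 and 55 to 43 bases before its start, and the DNAJB1 matches 77 to 70 and 47 to 40 bases before its RefSeq start 2. The HSP90AA1 matches lie between 88 and 61 bases before its start 2. Those of HSP90AB1 lie 165 to 153 and 112 to 100 bases before its start 3. The HSPD1 3-unit element lies 245 to 228 bases before its start 2, which is downstream of its start 1. That element is also outside the window searched before the HSPE1 start. The HSPA1A and HSPA1B lines carry the same match, GAATATTC, at 106 to 99 and 105 to 98 bases before their starts. A longer stretch before the HSPA1A start is shown because HSPA1A had the largest 8 h change among the members; it lies in no annotated exon.
HSPA1A, chr6:31815293-31815463, plus strand: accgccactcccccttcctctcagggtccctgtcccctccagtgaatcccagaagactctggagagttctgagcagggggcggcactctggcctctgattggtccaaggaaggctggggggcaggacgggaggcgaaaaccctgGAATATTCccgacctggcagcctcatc

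Total counts ran from 136860029 to 182438505 per library, so that 3 counts, the floor used here for a gene at 0, were 0.0164 to 0.0219 CPM (counts relative to the library total). MYC had means of 387, 795, 321 and 248 CPM in MYC-ER cells from 0 to 48 h, in order of time, against 532, 463, 506 and 525 CPM in parental cells. The MYC-ER mean was above the parental one at 8 h only, so the MYC level does not check the line labels at 0, 24 and 48 h, and reads of the fusion transgene and of the endogenous gene cannot be told apart in these counts. All 7 basal mammary epithelial markers were above 1 CPM in every group, with KRT5 at 6763 CPM or more in every library. Of the markers of other cells, PTPRC and CD3E (leukocytes), CDH5 and VWF (endothelium), ADIPOQ (adipocytes) and the luminal PGR, ELF5 and ESR1 were at 0 to 0.557 CPM. Others went higher in some or all libraries: the leukocyte marker CD68 was at 4.20 to 23.6 CPM, the luminal GATA3 at 8.32 to 19.5 CPM and FOXA1 at 0.139 to 3.52 CPM, the endothelial PECAM1 at 0.0464 to 2.32 CPM and the adipocyte PLIN1 at 0.0811 to 1.71 CPM. Several levels set the MYC-ER 0 h libraries apart from the other groups: mitochondrial genes took 9.54% ± 0.26 (SD, n = 3) of their counts against group means of 6.06% to 7.21% elsewhere. The parental 0 h group was uneven, with 3.86% in replicate 1 against 7.28% and 7.03% in replicates 2 and 3. The 5 fibroblast markers summed to 369 to 376 CPM in the MYC-ER 0 h libraries, from COL1A1 and DCN with COL3A1, PDGFRA and LUM at or near 0, against 100.95 to 109 CPM at 8 h and 76.7 to 132 CPM in the remaining groups. The pan-epithelial markers summed to 349 to 368 CPM in MYC-ER cells at 0 h and to 808 to 862 CPM at 8 h. The basal markers summed to 15118 to 15625 CPM in MYC-ER cells at 0 h, against 24690 to 30425 CPM in parental cells at 0 h, and to 11173 to 11902 CPM in MYC-ER cells at 24 and 48 h. The part of the fibroblast, basal and pan-epithelial marker shifts in the chaperone results was not tested; with the mitochondrial genes left out, the calls of the members given here were the same except for HSPA8 at 48 h in MYC-ER cells (0.15, adjusted p = 0.051, edgeR).

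In MYC-ER cells 9 of the 10 chaperones were higher after 8 h of 4-OHT and 1, HSPB1, was lower, by edgeR's quasi-likelihood test with Benjamini-Hochberg adjustment over all genes (threshold 0.05). In that comparison 67.6% of all genes tested were called, 32.2% higher and 35.4% lower. The 8 h and 0 h libraries did not overlap for any of the 10, against 73.5% of all genes. The median log2 change of the members was 1.67, against -0.10 for all genes tested. The 10 genes together took 0.461% ± 0.00262 (SD, n = 3) of all counts at 0 h and 1.94% ± 0.0376 at 8 h, then 1.11% ± 0.0133 at 24 h. By 48 h the share was 0.504% ± 0.0116. In parental cells the same share stayed between group means of 0.884% and 1.07%. All levels below are CPM scaled by TMM (trimmed mean of M values, a correction for library composition), given for replicates 1, 2 and 3 in that order; changes are log2 with their standard error (SE).

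**Figure D1:**
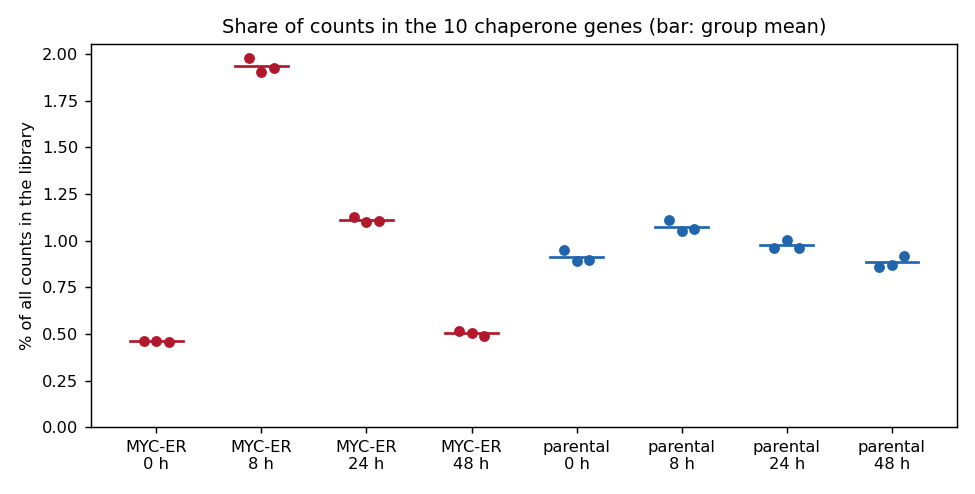
The y axis gives the percentage of a library's counts that fell on the 10 chaperone genes, for each line and time of 4-OHT on the x axis (points: libraries, bars: group means). The MYC-ER libraries at 8 h sit between 1.90% and 1.98%, above every other library, and the MYC-ER libraries at 0 h sit at 0.458% to 0.463%, below every parental library.

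HSPA8 (ENSG00000109971.14, chr11:123057489-123063230, minus strand), the constitutive HSP70, was the most abundant member per kilobase of transcript after 8 h. Its levels in MYC-ER cells were 808, 888 and 860.0 CPM at 0 h and 6789, 6381 and 6641 CPM at 8 h. At the later times it had 2664, 2539 and 2548 CPM at 24 h and 971, 956 and 911 CPM at 48 h. In parental cells they were 2833, 2761 and 2988 CPM at 0 h and 3717, 3488 and 3597 CPM at 8 h. The 24 h libraries gave 3078, 3303 and 3199.7 CPM and the 48 h libraries 2796, 2968 and 3303 CPM. The MYC-ER libraries thus lay below all parental libraries at 0 h, above all of them at 8 h and below them again at 24 and 48 h. The log2 change at 8 h was 2.95 (SE 0.065, adjusted p = 1.7e-19), a rise of 7.75-fold, and at 24 h it was 1.60 (SE 0.062, adjusted p = 1.4e-15). At 48 h the change was 0.15 (SE 0.061, adjusted p = 0.048), a call that was lost in 18 of the 24 fits that each left out 1 library. The fall from 8 to 24 h was -1.35 (SE 0.062, adjusted p = 4.5e-14).

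HSPA1A (ENSG00000204389.10, chr6:31815464-31817946, plus strand) and HSPA1B (ENSG00000204388.7, chr6:31827735-31830255, plus strand), the intronless heat-inducible HSP70 genes, had the 2 largest 8 h changes of the members. HSPA1A was at 246, 253 and 250.5 CPM in MYC-ER cells at 0 h and 2531, 2418 and 2558 CPM at 8 h. It then stood at 361, 345 and 341 CPM at 24 h and 122, 118 and 112 CPM at 48 h. In parental cells HSPA1A was at 504, 419 and 504 CPM at 0 h and 599.6, 549 and 553 CPM at 8 h. Later levels were 481, 414 and 496 CPM at 24 h and 290.2, 352 and 357 CPM at 48 h. The 8 h libraries of MYC-ER cells overlapped with no other group, and by 24 h 4.39% of the 8 h rise in mean CPM was left. The log2 change of HSPA1A was 3.32 (SE 0.088, adjusted p = 2.5e-18) after 8 h (10.01-fold), 0.48 (SE 0.081, adjusted p = 2.2e-05) after 24 h and -1.09 (SE 0.082, adjusted p = 3.6e-10) after 48 h, when it was 2.13-fold lower than at 0 h. HSPA1B followed it with means of 252, 2212, 336 and 117 CPM at 0, 8, 24 and 48 h and an 8 h log2 change of 3.13 (SE 0.089, adjusted p = 7.5e-18). The split of reads between them is uncertain: 67.1% of the 150-base windows of the HSPA1A transcript occur unchanged in the HSPA1B transcript (GENCODE 29), and how the authors' counting shared such reads is not given in the sources used here. With the counts of both genes summed, the log2 change was 3.23 after 8 h, 0.45 after 24 h and -1.10 after 48 h. No such window of HSPA1A occurs in HSPA8, and none of HSP90AA1 occurs in HSP90AB1.

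HSPH1 (ENSG00000120694.20, chr13:31134974-31162388, minus strand), an HSP110 nucleotide exchange factor, and DNAJB1 (ENSG00000132002.8, chr19:14514770-14529770, minus strand), the J-domain protein that loads HSP70, rose at 8 h and then fell below their 0 h levels. HSPH1 was at 457, 498 and 464 CPM in MYC-ER cells at 0 h and 1033, 997 and 1005 CPM at 8 h. From there it went to 352, 327 and 330.4 CPM at 24 h and 148, 143 and 142 CPM at 48 h. None of these 4 groups overlapped. Its log2 change was 1.10 (SE 0.056, adjusted p = 1.4e-13) after 8 h, -0.49 (SE 0.056, adjusted p = 9.5e-08) after 24 h and -1.71 (SE 0.057, adjusted p = 4.5e-16) after 48 h, the last a 3.27-fold fall. Parental HSPH1 stayed between 379 and 516 CPM over all 12 libraries. DNAJB1 was at 230.1, 240.4 and 235 CPM in MYC-ER cells at 0 h and 457, 437 and 463 CPM at 8 h. The following times gave 162, 157 and 162 CPM at 24 h and 133, 126 and 126 CPM at 48 h. Its log2 change was 0.94 (SE 0.052, adjusted p = 4.3e-13) after 8 h, -0.55 (SE 0.051, adjusted p = 3.9e-09) after 24 h and -0.87 (SE 0.052, adjusted p = 7.3e-12) after 48 h.

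The HSP90 pair parted after 8 h. From 8 to 24 h in MYC-ER cells HSP90AA1 fell (log2 change -0.57), whereas HSP90AB1 was not called (-0.03). HSP90AA1 (ENSG00000080824.18, chr14:102080738-102139699, minus strand), the inducible form, was at 560.1, 603 and 572 CPM in MYC-ER cells at 0 h and 3988, 3834 and 3832 CPM at 8 h. Its later levels were 2719, 2559 and 2562 CPM at 24 h and 589.9, 577 and 558 CPM at 48 h. Its 48 h libraries overlapped with its 0 h libraries, and 61.5% of the 8 h rise in mean CPM was left at 24 h. The log2 change was 2.75 (SE 0.06, adjusted p = 1.2e-19) after 8 h (6.72-fold) and 2.18 (SE 0.058, adjusted p = 2.3e-18) after 24 h. HSP90AB1 (ENSG00000096384.20, chr6:44246166-44253888, plus strand), the constitutive form, was at 711, 748 and 735 CPM in MYC-ER cells at 0 h and 2322, 2245 and 2326 CPM at 8 h. By 24 h it was at 2321, 2229.8 and 2209 CPM, and by 48 h at 1233, 1227 and 1175 CPM. Its 8 and 24 h libraries overlapped, and its 48 h libraries were above all 0 h libraries. The log2 change of HSP90AB1 was 1.65 (SE 0.054, adjusted p = 7.2e-17) after 8 h, 1.62 (SE 0.054, adjusted p = 9.6e-17) after 24 h and 0.73 (SE 0.053, adjusted p = 2.2e-10) after 48 h.

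The mitochondrial chaperonin genes HSPD1 (ENSG00000144381.17, chr2:197486581-197516737, minus strand) and HSPE1 (ENSG00000115541.11, chr2:197499994-197503457, plus strand) rose together at 8 h and 24 h. HSPD1 was at 469.5, 496 and 493 CPM in MYC-ER cells at 0 h and 1286, 1239.9 and 1243 CPM at 8 h. Subsequent levels were 1185, 1118 and 1145 CPM at 24 h and 715, 705 and 685 CPM at 48 h. HSPE1 was at 62.9, 69.6 and 68.1 CPM at 0 h and 226, 207 and 214 CPM at 8 h. The libraries of later times had 178, 173 and 175 CPM at 24 h and 61.2, 60.1 and 58.6 CPM at 48 h. At 48 h the HSPD1 libraries were all above their 0 h level, whereas the HSPE1 libraries were all below theirs without passing the test (adjusted p = 0.13). The log2 change of HSPD1 was 1.37 (SE 0.054, adjusted p = 1.5e-15) after 8 h, 1.24 (SE 0.054, adjusted p = 9.4e-15) after 24 h and 0.53 (SE 0.053, adjusted p = 3.6e-08) after 48 h. The log2 change of HSPE1 was 1.69 (SE 0.084, adjusted p = 7.8e-14) after 8 h and 1.39 (SE 0.083, adjusted p = 2.4e-12) after 24 h. HSPE1 also lies within the annotated span of HSPD1, on the opposite strand, and whether the counting used strand is not given in the sources used here. It overlaps the read-through gene HSPE1-MOB4, so reads of the 2 cannot be fully told apart, and HSPE1-MOB4 itself was at 0 to 5.95 CPM in all libraries.

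HSPB1 (ENSG00000106211.9, chr7:76302544-76304295, plus strand), the small heat shock protein, moved the other way. Its levels in MYC-ER cells were 798, 692 and 739 CPM at 0 h and 457, 411 and 474 CPM at 8 h. It went on to 445, 423 and 409.8 CPM at 24 h and 595, 555 and 539.6 CPM at 48 h. In parental cells they were 967, 663 and 1035 CPM at 0 h and 707, 655 and 756 CPM at 8 h. Thereafter it was at 477, 495 and 458 CPM at 24 h and 497, 451 and 437 CPM at 48 h. The parental 0 h libraries spread widely, with replicate 2 below the 2 others, and the 24 and 48 h libraries of both lines were below every 0 h library. The log2 change in MYC-ER cells was -0.73 (SE 0.11, adjusted p = 4.7e-06) after 8 h, -0.80 (SE 0.111, adjusted p = 1.6e-06) after 24 h and -0.40 (SE 0.11, adjusted p = 0.0053) after 48 h. The 48 h call was lost with library size alone replacing TMM (-0.24, adjusted p = 0.068, edgeR). In parental cells it was -0.90 (SE 0.111, adjusted p = 3.6e-06) after 24 h and -0.94 (SE 0.111, adjusted p = 4.7e-06) after 48 h, and with GC and length trends removed -0.30 and -0.44, both still called.

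**Figure D2:**
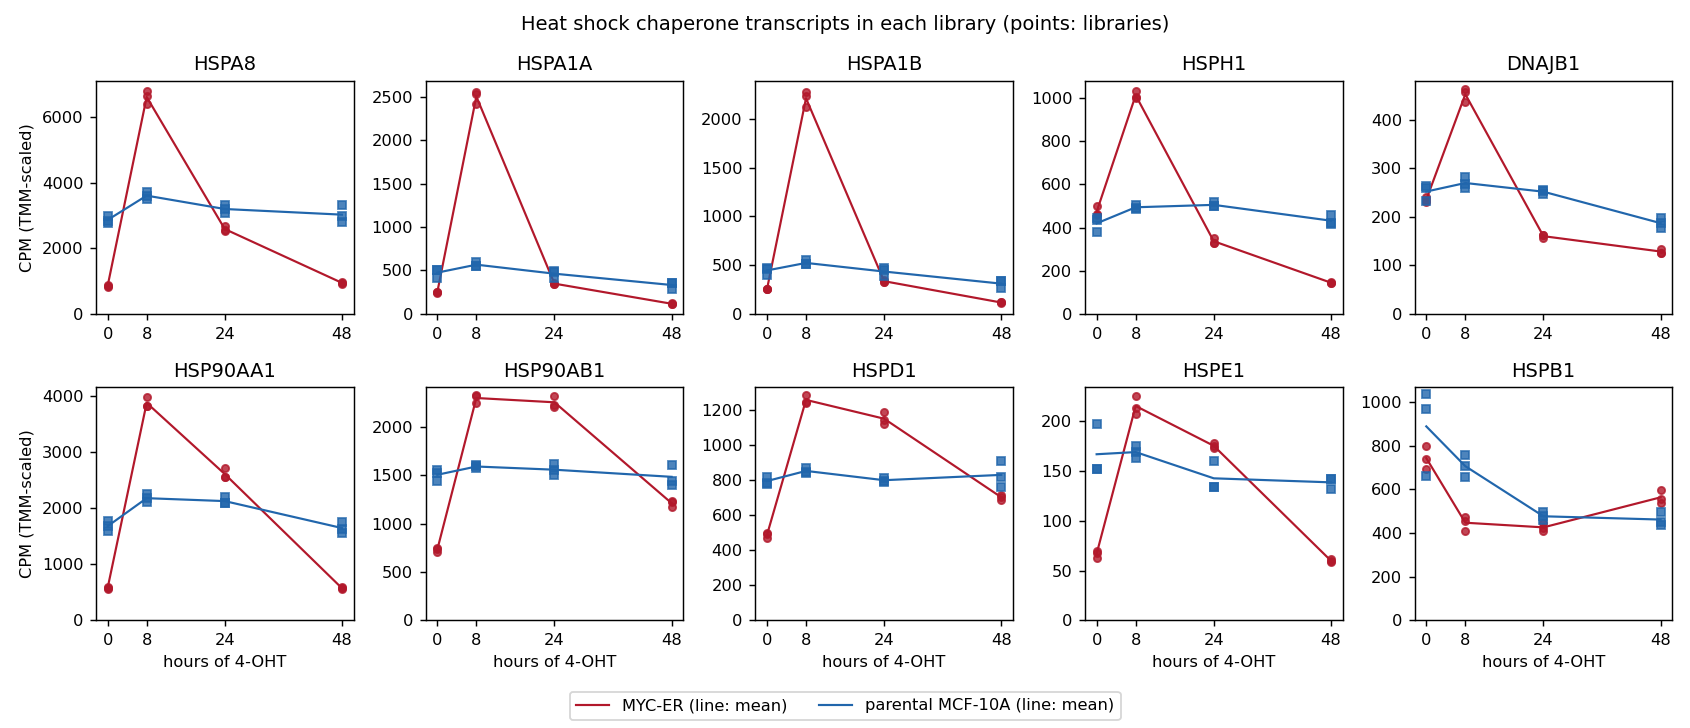
Each panel plots 1 chaperone, with hours of 4-OHT on the x axis and CPM on the y axis (circles: MYC-ER libraries, squares: parental libraries, lines: group means; each panel has its own scale from 0). In 9 panels the MYC-ER mean peaks at 8 h above the parental mean, whereas HSPB1 is lower at 24 h than at 0 h in both lines.

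The course after 8 h divided the members. At 24 h, 7 members were higher and 3 lower than at 0 h, where 61.6% of all genes were called, 30.4% higher and 31.2% lower. The 3 were HSPH1, DNAJB1 and HSPB1. At 48 h, 3 members were higher (HSP90AB1, HSPD1 and HSPA8) and 5 lower (HSPH1, HSPA1A, HSPA1B, DNAJB1 and HSPB1), where 44.1% of all genes were called, 23.4% higher and 20.7% lower. The libraries did not overlap with those of 0 h for 10 members at 24 h (70.7% of all genes) and for 9 at 48 h (62.3% of all genes), and those of 48 h did not overlap with those of 24 h for any of the 10 (68%). The median change of the members was 0.86 at 24 h and -0.28 at 48 h, against -0.02 and 0.03 for all genes. The comparisons with 0 h share the 0 h libraries. Between 8 and 24 h, 8 members fell and none rose (55.5% of all genes called, 28.4% higher and 27.1% lower), and the falls ran from -0.13 for HSPD1 to -2.84 for HSPA1A. The HSPD1 fall (adjusted p = 0.044) was lost in 14 of the 24 fits that left out 1 library and was 0.08 with library size alone replacing TMM, which called 1 member higher and 6 lower. At 48 h against 0 h library size alone called 4 members higher and 4 lower. Library size alone also moved the median of all genes upward in both comparisons. The shares of all genes given here are from the fit with TMM and do not apply to its counts. Between 24 and 48 h, 9 members fell, from -0.32 for DNAJB1 to -2.18 for HSP90AA1, and HSPB1 rose by 0.40 (53.7% of all genes called, 28.2% higher and 25.5% lower). HSPA1A, HSPA1B, HSPH1 and DNAJB1 had the larger log2 fall before 24 h, and HSP90AA1, HSP90AB1, HSPD1 and HSPE1 after 24 h, while those of HSPA8 were -1.35 and -1.45. HSP90AB1 changed by -0.90 ± 0.053 (SE) from 24 to 48 h and HSPE1 by -1.55 ± 0.083 (SE), against -0.30 ± 0.081 (SE) for HSPE1 from 8 to 24 h. This last fall was not called by edgeR with library size alone (-0.09, adjusted p = 0.31) or upper quartile (-0.19, adjusted p = 0.071) replacing TMM.

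**Figure D3:**
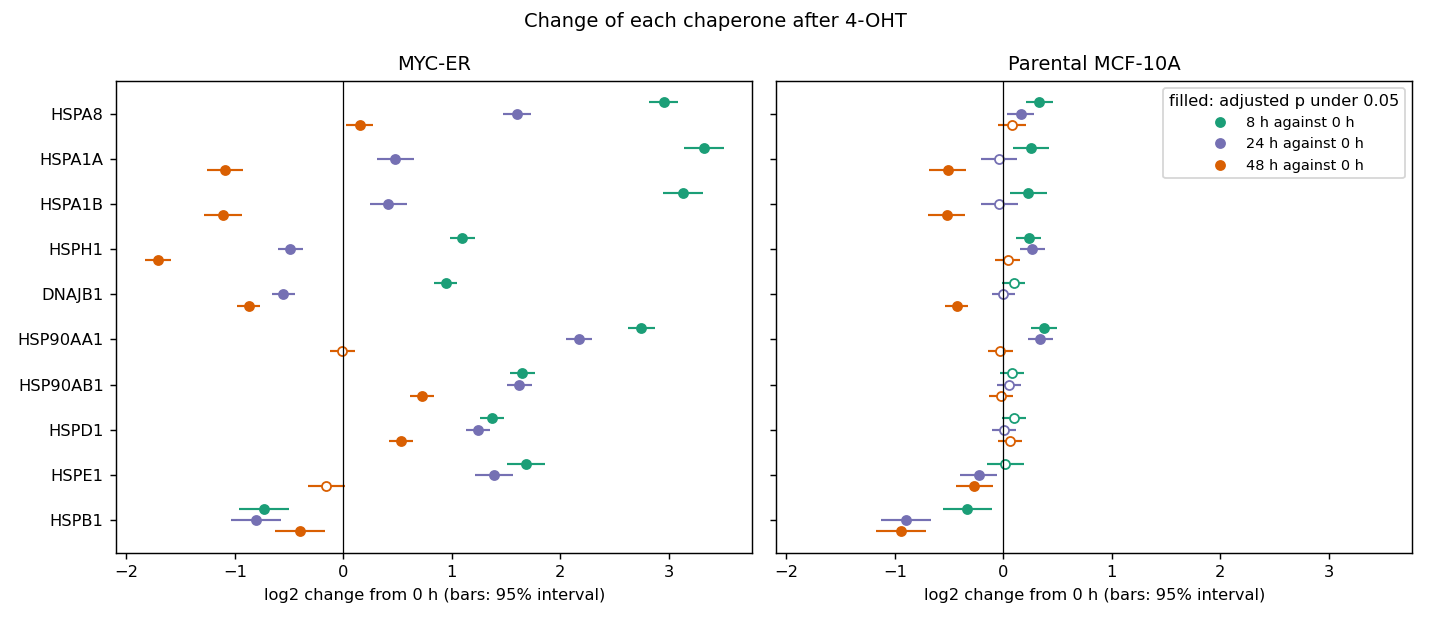
The x axis gives the log2 change from 0 h after 8, 24 and 48 h of 4-OHT with its 95% interval, in MYC-ER cells on the left and parental cells on the right, for each chaperone on the y axis (filled points: adjusted p under 0.05). In MYC-ER cells the 8 h points reach 3.32 (HSPA1A), whereas the parental points lie between -0.94 (HSPB1 at 48 h) and 0.38 (HSP90AA1 at 8 h).

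Parental cells, which carry no MYC-ER, were compared with their own 0 h libraries under the same drug. At 8 h, HSP90AA1 rose by 0.38, HSPA8 by 0.33, HSPA1A by 0.25, HSPH1 by 0.24 and HSPA1B by 0.23, and HSPB1 changed by -0.33 (log2). These are 5 members higher and 1 lower, where 31% of all genes were called, 15% higher and 16% lower. The median change was 0.17 against 0.00 for all genes. The count depended on the libraries in the fit: it was 2 when the 8 h and 0 h parental libraries were fitted alone, a fit that called 7.41% of all genes, and 3 without parental 8 h replicate 1. HSPA1A lost its call without parental 0 h replicate 2 or parental 8 h replicate 1, HSPA1B without parental 0 h replicate 2 or any parental 8 h replicate, and HSPB1 without parental 0 h replicate 1 or 3 or parental 8 h replicate 1 or 2. With trends on GC content and transcript length removed, the 8 h change was -0.02 for HSPH1 and 0.05 for HSPB1. At 24 h, HSP90AA1 (0.34), HSPH1 (0.27) and HSPA8 (0.16) were higher and HSPB1 (-0.90) and HSPE1 (-0.23) lower (log2), 5 of 10 where 42.9% of all genes were called, 21.2% higher and 21.7% lower. That count was 3 without parental 24 h replicate 3, 3 with no filter on low counts and 2 with the 24 h and 0 h parental libraries fitted alone, a fit that called 25.1% of all genes. HSPE1 was at 152, 152 and 197 CPM in parental cells at 0 h, with replicate 3 high, and at 134, 160.2 and 134 CPM at 24 h, with replicate 2 high; its call was lost without parental 0 h replicate 3, 8 h replicate 1 or 24 h replicate 1 or 3. The HSPA8 call was lost in 12 of the 24 fits that left out 1 library, and with GC and length trends removed the 24 h change was 0.01 for HSPE1 and -0.12 for HSPH1. At 48 h no member was higher and 5 were lower (40.5% of all genes called, 20.4% higher and 20.1% lower). The log2 change was -0.94 for HSPB1, -0.52 for HSPA1B, -0.51 for HSPA1A, -0.43 for DNAJB1 and -0.27 for HSPE1. HSPE1 lost that call without parental 0 h replicate 3 or 48 h replicate 2, and with library size alone replacing TMM 2 members were higher and 5 lower. For the fits with 1 library left out, with no filter or with library size alone, the share of all genes called is not given here. Removal of GC and length trends left the 48 h calls of HSPA1A (-0.22), HSPA1B (-0.25) and DNAJB1 (-0.25) with smaller values. HSP90AB1 and HSPD1 passed the test at no time in parental cells; their libraries ran from 1403 to 1614 CPM and from 760.1 to 908 CPM.

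The lines differed before the drug. At 0 h, 8 members were lower in the MYC-ER line and 1, HSPH1, was higher, where 64.3% of all genes were called, 31.6% higher and 32.7% lower. The median difference was -0.88 against 0.00 for all genes. MYC-ER levels were 29.8% of parental levels for HSPA8, 34.4% for HSP90AA1, 40.1% for HSPE1, 48.6% for HSP90AB1, 52.6% for HSPA1A, 56.5% for HSPA1B and 61.2% for HSPD1. The log2 difference was -1.75 (SE 0.062, adjusted p = 3.8e-16) for HSPA8 and -1.54 (SE 0.057, adjusted p = 6.8e-16) for HSP90AA1. The groups did not overlap for 8 members, against 65% of all genes, and DNAJB1 was at 235 and 252 CPM in the MYC-ER and parental groups, which overlapped. The HSPB1 difference (-0.26, adjusted p = 0.046) was lost in 16 of the 24 fits that left out 1 library. That of HSPH1 (0.17) was lost without MYC-ER 0 h replicate 2 and was -0.06 with a GC trend removed and -0.17 after removal of GC and length trends (adjusted p = 0.014, edgeR), when that of HSPB1 was 0.12. At 8 h, 9 members were higher in MYC-ER cells and HSPB1 was lower (48.6% of all genes called, 23.1% higher and 25.5% lower), with log2 differences among the 9 from 0.35 for HSPE1 to 2.14 for HSPA1A. At 24 h, 4 were higher (HSPD1, HSP90AB1, HSPE1 and HSP90AA1) and 5 lower (DNAJB1, HSPH1, HSPA1A, HSPA1B and HSPA8), where 49.4% of all genes were called, 23.5% higher and 25.8% lower. At 48 h, 9 were lower and HSPB1 was higher (56.7% of all genes called, 27.3% higher and 29.4% lower), and the median difference was -1.31 against 0.02 for all genes. MYC-ER levels at 48 h were 31.3% of parental levels for HSPA8, 33.5% for HSPH1, 34.9% for HSP90AA1 and 35.2% for HSPA1A, but 81.7% for HSP90AB1 and 84.6% for HSPD1. The 48 h HSPB1 difference (0.29, adjusted p = 0.031) was lost without MYC-ER 48 h replicate 1 or 2 or parental 48 h replicate 2 or 3, and was 0.01 after GC and length trends were taken out (adjusted p = 0.86, edgeR). That of HSPD1 (-0.24) was not called with library size alone (-0.10, adjusted p = 0.067) or upper quartile (-0.10, adjusted p = 0.083) replacing TMM. Set against the parental 0 h level instead of their own, the MYC-ER 8 h means were 526% for HSPA1A, 496% for HSPA1B, 241% for HSPH1, 231% for HSPA8 and HSP90AA1, 179% for DNAJB1, 158% for HSPD1, 153% for HSP90AB1, 129% for HSPE1 and 50.3% for HSPB1.

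The response to 4-OHT itself was compared between the lines with an interaction term (change in MYC-ER cells less that in parental cells). At 8 h it was above 0 for 9 members and below 0 for HSPB1, where 55.2% of all genes were called, 27.3% above 0 and 27.8% below. It was 3.07 (SE 0.116, adjusted p = 3.7e-15) for HSPA1A, 2.62 (SE 0.087, adjusted p = 4.8e-16) for HSPA8 and 2.37 (SE 0.08, adjusted p = 5.8e-16) for HSP90AA1. At 24 h it was above 0 for 7 members and below 0 for HSPH1 and DNAJB1 (54.5% of all genes called, 27.7% above 0 and 26.8% below), and HSPB1 was not called. At 48 h it was above 0 for HSP90AB1, HSPB1 and HSPD1 and below 0 for HSPH1, HSPA1B, HSPA1A and DNAJB1 (45% of all genes called, 23.6% above 0 and 21.4% below), and HSPA8, HSP90AA1 and HSPE1 were not called. The median over the members was 1.62, 0.88 and 0.05 in order of time, against -0.08, 0.02 and 0.07 for all genes. The HSPB1 term at 8 h (-0.40, SE 0.155, adjusted p = 0.034) was lost without MYC-ER 0 h replicate 1 or 3, MYC-ER 8 h replicate 2, parental 0 h replicate 2 or parental 8 h replicate 3, and its term at 48 h (0.54, SE 0.155, adjusted p = 0.0067) was -0.11 once GC and length trends were removed.

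The members were also ranked by their level per kilobase of their longest coding transcript, a rough scaling for genes of different length. Which transcripts were expressed was not determined, and the order depends on the lengths used. In MYC-ER cells at 0 h HSPB1 led with 817 ± 58.2 CPM per kilobase (SD, n = 3), followed by HSPA8 with 346 ± 16.6 and HSP90AB1 with 273 ± 7.13. At 8 h HSPA8 led with 2681 ± 83.9, followed by HSP90AA1 with 1107 ± 25.6 and HSPA1A with 1008 ± 29.8, and HSPB1 was seventh with 492 ± 35.9 CPM per kilobase. At that time HSPA1B and HSP90AB1, HSPD1 and HSPB1, and DNAJB1 and HSPH1 were neighbours in the order whose libraries overlapped. At 48 h HSPB1 led again with 619.8 ± 31.7 and HSPH1 was last with 27.9 ± 0.63 CPM per kilobase. In parental cells at 0 h HSPA8 led with 1162 ± 47.1 and HSPB1 followed with 977 ± 218 CPM per kilobase, and their libraries overlapped.

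Across the 24 libraries, which share lines and times, log2 CPM of the 36 pairs of members without HSPB1 had Pearson correlations that ran from 0.279 to 1.00 (median 0.816), and the 9 pairs with HSPB1 from -0.584 to 0.0832. The closest pairs were HSPA1A with HSPA1B, whose reads cannot be fully separated, HSPD1 with HSP90AB1 (0.986), HSPE1 with HSP90AA1 (0.965), HSPA8 with HSP90AA1 (0.96), HSPA8 with HSPE1 (0.945) and HSPH1 with DNAJB1 (0.928). HSPD1 and HSPE1, which share the stretch between their starts, were at 0.811. Among the 9774 other genes that averaged 10 CPM or more, the closest to HSPA8 was CCT6A, at a correlation of 0.993. The closest were PTGES3 (0.991) for HSP90AA1, PAICS (0.985) for HSP90AB1, TCP1 (0.989) for HSPD1 and TOMM5 (0.988) for HSPE1 (Pearson correlation in parentheses). They were UTP6 (0.98) for HSPA1A, NARS1 (0.975) for HSPH1, PSMF1 (0.964) for DNAJB1 and SLC2A4RG (0.941) for HSPB1. These correlations describe the course over lines and times and carry no test.

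The partners of the members were counted in lists drawn up by known role, with earlier results of these data in view. At 0 h, 11 of 15 HSP90 cochaperones were lower and 2 higher in MYC-ER than in parental cells. Of 22 tested genes of the HSP70 system, 16 were lower and 4 higher. Of all genes, 32.7% were lower and 31.6% higher. Of 15 HSP90 cochaperones, 12 rose and 1 fell at 8 h in MYC-ER cells (median log2 change 1.77, against -0.10 for all genes, of which 67.6% were called). AHSA1, which stimulates the HSP90 ATPase, went from 64.7 ± 1.59 CPM to 295 ± 10.4 CPM (SD, n = 3), its log2 change being 2.19 (SE 0.07, adjusted p = 5.2e-17). TOMM34, a cochaperone of HSP70 and HSP90, changed by 2.62 (SE 0.068, adjusted p = 2.0e-18). FKBP5, an HSP90 cochaperone of steroid receptors, was the 1 that fell, from 1560.4 ± 61.9 CPM to 1040.2 ± 33.7 CPM, by -0.59 (SE 0.063, adjusted p = 3.7e-08). Of 22 tested genes of the HSP70 system, 16 rose and 5 fell (median 0.67; 16 and 2 with DESeq2 size factors in place of TMM); DNAJA4 was listed but had too few counts to test. The J-domain gene DNAJB5 went from 3.82 ± 0.302 CPM to 58.5 ± 2.07 CPM and back to 5.58 ± 0.22 CPM at 24 h; its 8 h log2 change was 3.94 (SE 0.082, adjusted p = 6.9e-20). HSPA6, a strictly heat-inducible HSP70, went from 1.03 ± 0.0698 CPM to 12.2 ± 0.59 CPM (log2 change 3.57, SE 0.127, adjusted p = 2.9e-16) and was at 1.63 ± 0.116 CPM at 24 h. DNAJB2 and DNAJB4, also J-domain genes, changed by -0.72 and -0.64 (log2) at 8 h. TOMM34 was at 19.2 CPM in MYC-ER and 81.9 CPM in parental cells at 0 h. Parental 0 h means were also above the MYC-ER ones for AHSA1 (183 CPM), DNAJB5 (20 CPM) and HSPA6 (3.88 CPM). That of FKBP5 (607 CPM) was below. The 8 h interaction term was above 0 for 12 cochaperones and below 0 for 1. In the HSP70 system it was above 0 for 16 genes and below 0 for 3, against 27.3% and 27.8% of all genes.

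Of 16 known heat-inducible HSF1 targets, 12 rose and 4 fell at 8 h in MYC-ER cells (median 1.57), where 32.2% of all genes rose and 35.4% fell, and 11 of the 16 are also in another of the lists. Of 6 tested small heat shock proteins other than HSPB1, none rose and 5 fell. HSPB8, which works with BAG3 in selective autophagy, went from 30.8 ± 1.75 CPM at 0 h to 7.85 ± 0.745 CPM at 8 h and 24.8 ± 0.68 CPM at 48 h (log2 change at 8 h -1.97, SE 0.086, adjusted p = 8.1e-15). CRYAB went from 27.3 ± 0.689 CPM to 12.5 ± 1.01 CPM (log2 change -1.12, SE 0.104, adjusted p = 2.9e-09). The 4 other tested genes of this list had at most 159 counts in any MYC-ER library, so no median is given, and HSPB9 and CRYAA were not tested. Some of these 4 had only 0 to 2 counts per MYC-ER library at 8 h, so the falls among them rest on few reads. HSF1, the master regulator of the heat shock response, was at 169.6 ± 7.75 CPM, 183 ± 6.64 CPM, 140.3 ± 3.69 CPM and 149.8 ± 3.81 CPM in MYC-ER cells at 0, 8, 24 and 48 h. It did not pass the test at 8 h (adjusted p = 0.22), though it was called higher with a GC trend removed (0.21, adjusted p = 6.4e-05), with a length trend removed as well (0.15, adjusted p = 2.7e-04), with those groups fitted alone (0.14, adjusted p = 0.013) and without parental 0 h replicate 2. It fell by 0.27 at 24 h (log2). HSF2, a related factor, was at 14.2, 10.6, 16.7 and 13.2 CPM at the same times; its 8 h log2 change was -0.42 (SE 0.085, adjusted p = 1.8e-04). HSF4 went from 50.8 ± 1.22 CPM to 16.3 ± 0.231 CPM at 8 h (log2 change -1.64, SE 0.1, adjusted p = 2.5e-12), and HSBP1, an HSF1-binding protein, changed by 0.31 (SE 0.059, adjusted p = 7.0e-05). Of these 4 genes, 1 rose and 2 fell at 8 h. Parental 0 h means were below the MYC-ER ones for HSF4 (20.4 CPM), HSPB8 (12.4 CPM) and CRYAB (10.5 CPM). Of the 16 HSF1 targets, 12 were lower and 3 higher in MYC-ER than in parental cells at 0 h, against 32.7% and 31.6% of all genes. The 8 h interaction term was above 0 for 12 of them and below 0 for 3, against 27.3% and 27.8% of all genes.

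Counterparts of the members in the organelles were set beside them. At 0 h, 8 of 13 mitochondrial chaperones and proteases were lower and 0 higher in MYC-ER than in parental cells. Of 8 chaperones of the endoplasmic reticulum, 6 were lower and 2 higher, against 32.7% and 31.6% of all genes. Of all genes tested in MYC-ER cells, 32.2% rose and 35.4% fell at 8 h, 30.4% and 31.2% at 24 h and 23.4% and 20.7% at 48 h, against which the counts are to be read. Of 13 mitochondrial chaperones and proteases, 12 rose and none fell at 8 h in MYC-ER cells (median 0.58), and 11 rose and none fell at 24 h (median 0.73). HSPA9, the mitochondrial HSP70, went from 549.6 ± 20.6 CPM at 0 h to 1103 ± 18.1 CPM after 8 h. It was then at 909 ± 28.1 CPM after 24 h and 481 ± 10.6 CPM after 48 h (log2 change at 8 h 1.01, SE 0.048, adjusted p = 4.6e-14). TRAP1, the mitochondrial HSP90, was at 132, 296, 379 and 228 CPM at these times, highest at 24 h (log2 change at 24 h 1.52, SE 0.087, adjusted p = 1.3e-12). GRPEL1, the nucleotide exchange factor of HSPA9, changed by 1.58 (SE 0.062, adjusted p = 1.6e-15) and DNLZ, an escort protein of HSPA9, by 1.82 (SE 0.144, adjusted p = 2.3e-10) after 8 h. Of 8 chaperones of the endoplasmic reticulum, 6 rose and 2 fell at 8 h in MYC-ER cells (median 0.75). At 24 h, 2 rose and 3 fell (median -0.06). In parental cells 6 rose and 1 fell at 8 h (median 0.26), against 15% and 16% of all genes. Between lines at 8 h, 3 were higher and 4 lower in MYC-ER cells (median -0.09), against 23.1% and 25.5% of all genes. HSPA5, the HSP70 of that compartment, was at 652 ± 33.3 CPM at 0 h and 879 ± 47.8 CPM after 8 h in parental cells. In MYC-ER cells it went from 588 ± 15.9 CPM at 0 h to 949 ± 29.5 CPM after 8 h and 401 ± 12.1 CPM after 24 h. Its log2 change was 0.69 (SE 0.058, adjusted p = 6.6e-10) after 8 h and -0.55 (SE 0.058, adjusted p = 3.0e-08) after 24 h. HSP90B1, its HSP90, went from 523 ± 22.7 CPM to 1259.8 ± 24.1 CPM at 8 h (log2 change 1.27, SE 0.056, adjusted p = 1.0e-14). SDF2L1 changed by 2.34 (SE 0.124, adjusted p = 2.4e-13), and DNAJB9 and DNAJC3 by -1.11 and -0.28 (log2), the last a call lost without MYC-ER 0 h replicate 2 or MYC-ER 8 h replicate 3. At 24 h the HSP70 system had 12 genes higher and 3 lower, the HSP90 cochaperones 10 and 5, and the HSF1 targets 12 and 2. At 48 h the HSP70 system had 3 genes higher and 9 lower and the heat-inducible HSF1 targets 3 and 7; with library size alone replacing TMM these counts were 7 and 5, and 4 and 4. At 48 h the HSP90 cochaperones had 4 genes higher and 5 lower (6 and 4 with library size alone), the mitochondrial list 5 and 4 (6 and 2) and the chaperones of the endoplasmic reticulum 0 and 4 (2 and 4). The shares of all genes above are from the fit with TMM and do not apply to the counts with library size alone.

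**Figure D4:**
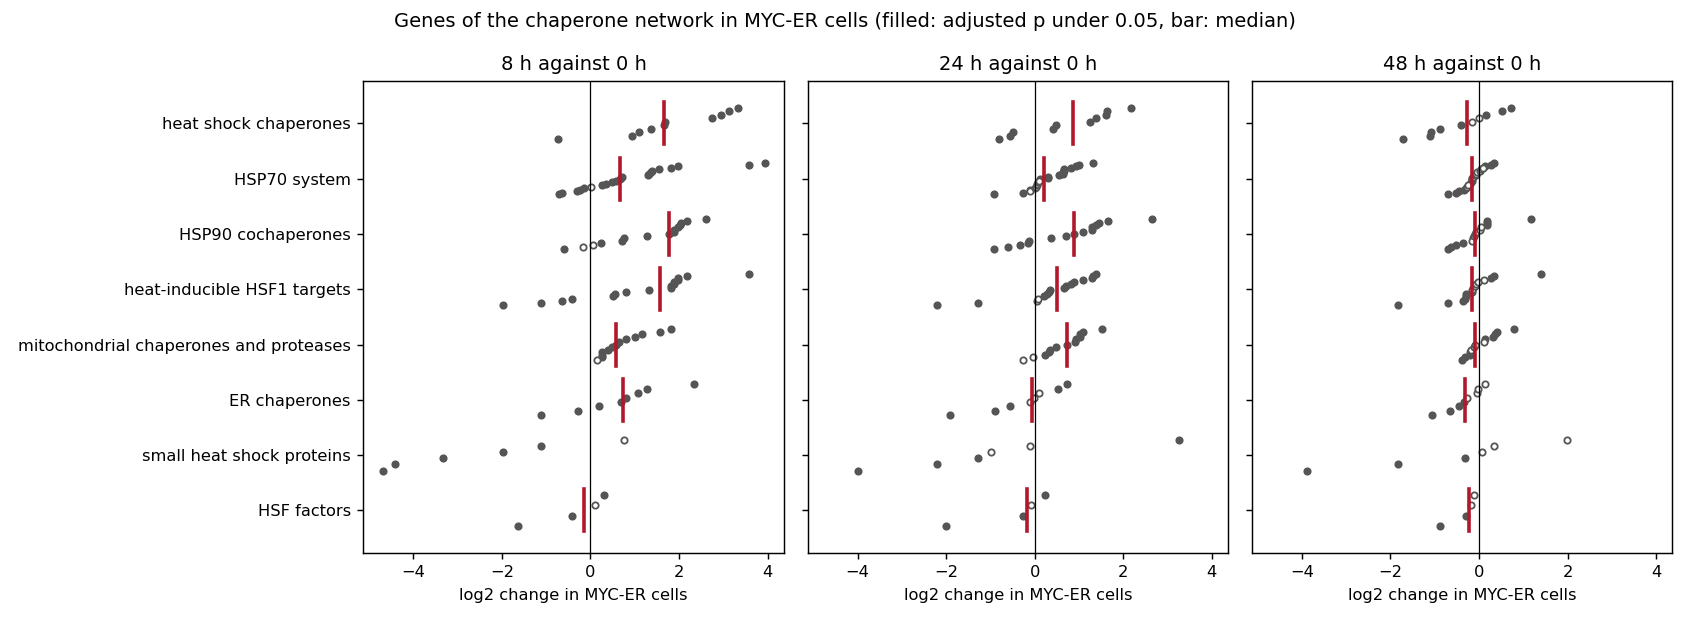
Each point is 1 gene of a list on the y axis, with its log2 change from 0 h in MYC-ER cells on the x axis, at 8, 24 and 48 h (filled points: adjusted p under 0.05, red bars: list medians, none for small heat shock proteins, most of which have few counts). At 8 h the medians of the chaperones, HSP90 cochaperones and HSF1 targets lie at 1.67, 1.77 and 1.57, and at 48 h all drawn medians lie between -0.30 and -0.08, whereas with library size alone those of the HSP70 system, HSP90 cochaperones, HSF1 targets and mitochondrial list lie between 0.01 and 0.08.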

How the data were processed

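RNA-seq was analysed for 24 MCF-10A libraries in 8 groups of 3 (2 lines, 4 times). Per the submitters' processing notes, reads were handled with Trimmomatic 0.39, STAR and StringTie 2.1.3b on GRCh38; the annotation release and strand setting are not given in the sources used here. The authors deposited whole-number counts per gene, not normalized, which were used as deposited. edgeR 4.0.16 (R 4.3.3, limma 3.58.1) was run on all libraries with 1 mean per group: filterByExpr kept 22158 of 60668 genes, TMM set the scale, and the quasi-likelihood F test was adjusted by Benjamini-Hochberg over all genes kept (threshold 0.05). Log2 CPM used a prior count of 2, and per-kilobase levels used the longest coding GENCODE 29 transcript of each member. GENCODE 29 also gave gene coordinates, looked up by gene name. The gene IDs printed are those of the count table, and their versions differ from GENCODE 29 for all members except HSP90AA1. The spans and lengths used here may thus differ from those behind the counts. The fit was also run on simulated counts in which few genes changed, as many up as down. That run could not check the scaling where most genes change. Depth makes counting error small for the members, and the spread between libraries sets the precision. The members and lists were chosen with earlier results of these data known. All 10 members are named in each comparison; in each other list the 2 called genes that rose most and the 2 that fell most may be named, plus HSF1, HSF2, HSPA5, HSPA9, HSP90B1, TRAP1 and MYC; for likeness, the 3 genes with the highest correlation per member were found and the first is named. Alternatives were DESeq2 (1.42.0) size factors and Wald test, library size alone, upper quartile, 2 other filters on low counts, fits of the compared groups alone, replicate numbers as blocks, GC and length trends removed (lowess span 0.3), HSPA1A with HSPA1B and HSPE1 with HSPE1-MOB4 summed, each of 24 libraries left out, and, chosen after seeing the data, mitochondrial genes left out. Protein sequences were not used here.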

Additional observations from a re-analysis of the deposited data

Results flagged for a closer look

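The log2 change under 4-OHT differed between MYC-ER and parental cells for the members below, by the interaction term of edgeR's quasi-likelihood test with Benjamini-Hochberg adjustment over 22158 genes (MYC-ER change minus parental change, 3 libraries a group). For HSPA8 the difference was 2.62 after 8 h (SE 0.087, adjusted p = 4.8e-16) and 1.44 after 24 h (SE 0.086, adjusted p = 5.6e-12). HSPA1A differed by 3.07 after 8 h (SE 0.116, adjusted p = 3.7e-15), 0.52 after 24 h (SE 0.114, adjusted p = 5.6e-04) and -0.58 after 48 h (SE 0.114, adjusted p = 2.9e-04). HSPA1B, which shares reads with it, differed by 2.90 after 8 h (SE 0.119, adjusted p = 1.2e-14), 0.45 after 24 h (SE 0.116, adjusted p = 0.0024) and -0.59 after 48 h (SE 0.116, adjusted p = 3.1e-04). The sign of the HSPH1 difference turned after 8 h, with 0.86 after 8 h (SE 0.079, adjusted p = 4.8e-09), -0.76 after 24 h (SE 0.079, adjusted p = 3.8e-08) and -1.75 after 48 h (SE 0.079, adjusted p = 1.7e-13). So did that of DNAJB1, with 0.85 after 8 h (SE 0.073, adjusted p = 1.8e-09), -0.55 after 24 h (SE 0.073, adjusted p = 1.1e-06) and -0.44 after 48 h (SE 0.073, adjusted p = 4.1e-05). HSP90AA1 differed by 2.37 after 8 h (SE 0.08, adjusted p = 5.8e-16) and 1.84 after 24 h (SE 0.079, adjusted p = 2.3e-14). HSP90AB1 was among the members called at all 3 times, with 1.57 after 8 h (SE 0.075, adjusted p = 1.4e-13), 1.57 after 24 h (SE 0.075, adjusted p = 1.2e-13) and 0.75 after 48 h (SE 0.075, adjusted p = 5.8e-08). HSPD1 was called at all 3 times too, with 1.27 after 8 h (SE 0.075, adjusted p = 4.5e-12), 1.23 after 24 h (SE 0.075, adjusted p = 7.5e-12) and 0.47 after 48 h (SE 0.075, adjusted p = 3.1e-05). HSPE1 differed by 1.67 after 8 h (SE 0.116, adjusted p = 6.1e-11) and 1.62 after 24 h (SE 0.116, adjusted p = 1.1e-10). HSPB1 had the opposite course in the main edgeR fit, with -0.40 after 8 h (SE 0.155, adjusted p = 0.034) and 0.54 after 48 h (SE 0.155, adjusted p = 0.0067). Its 8 h term was lost in 5 of the 24 fits that left out 1 library. Its 48 h term was 0.13 and not called with the GC trend removed, and -0.11 with GC and length trends removed. The called terms are 26 of 30 member and time combinations, where 55.2%, 54.5% and 45% of all genes were called at 8, 24 and 48 h. The terms at the 3 times share the 0 h libraries.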

How the results depend on the processing

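Over the 35 alternatives run for each member (36 for HSPE1, HSPA1A and HSPA1B), 24 of which left out 1 library each, all 10 members kept their call and direction at 8 h and at 24 h against 0 h in MYC-ER cells. Over 163 results for single genes, 5573 values kept direction and side of the threshold, 139 lost the call, 20 gained one and 13 changed sign. Members entered this tally only with results called in the main fit, so they could lose a call in it but not gain one. Most fits that left out 1 library left out one that was not in the 2 groups compared. The count of members called was 2 in parental cells at 8 h and 2 at 24 h with only the groups compared, and 3 at 24 h with no filter on low counts; these fits of 2 groups called 7.41%, 25.1% and 16.6% of genes at 8, 24 and 48 h (31%, 42.9% and 40.5% with all groups in the fit). Leaving out 1 library gave from 3 to 6 members called in parental cells after 8 h, from 3 to 5 after 24 h and 4 to 5 after 48 h, 7 to 9 in MYC-ER cells at 48 h against 0 h and 7 to 8 at 24 h against 8 h, 7 to 10 between lines at 0 h and 9 to 10 at 48 h, and 9 to 10 for the interaction at 8 h and at 24 h. The shares of all genes called in these fits and with replicate blocks are not given here. A smaller count of members there cannot be told from fewer calls over all genes. The value changed sign with GC and length trends removed for HSPH1 (-0.017 at 8 h, -0.12 at 24 h), HSPB1 (0.053 at 8 h) and HSPE1 (0.0091 at 24 h) in parental cells, for HSPH1 (-0.17) and HSPB1 (0.12) between lines at 0 h and for the HSPB1 interaction at 48 h (-0.11); with the GC trend alone for HSPH1 in parental cells at 24 h (-0.017) and for HSPH1 (-0.0555) and HSPB1 (0.012) between lines at 0 h. It also did so with library size alone for HSPD1 in MYC-ER cells at 24 h against 8 h (0.077) and HSF2 at 48 h (0.055, not called in either fit), and with upper quartile for HSF1 at 8 h (-0.032, not called in either fit); the cause was not tested. Library size alone moved the median of all genes by 0.11 for MYC-ER 24 h, 0.16 for 48 h and 0.21 at 24 h against 8 h, and upper quartile by -0.14 at 8 h. The HSPA1B interaction at 24 h was not called with the GC trend removed (0.24, adjusted p = 0.052, edgeR). With the replicate number as a block, HSPA8 at 48 h against 0 h (0.15, adjusted p = 0.058) and HSPD1 at 24 h against 8 h (-0.13, adjusted p = 0.055) in MYC-ER cells were not called (edgeR), so that 7 members were called in each of these comparisons; no other call of a member changed. Same-numbered libraries of different groups had correlations of their deviations from -0.0776 to 0.0943 over 84 pairs, 0 of them over 0.1. For libraries with other numbers they ran from -0.0577 to 0.0849 over 168 pairs. All genes tested had equal weight here, so a pairing seen in few genes could be missed. The labels do not state a pairing, and the numbers were not taken to pair the libraries.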
